A study of Mus musculus with 18 samples.

Results

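Cortex from the occluded side of the mouse brain was compared between 28 d and 24 h after transient middle cerebral artery occlusion (tMCAO), a model in which the artery is blocked for a while and then reopened. The comparison used 3 libraries taken at 28 d (R28d_C1, R28d_C2 and R28d_C3) and 3 taken at 24 h (R24h_C1, R24h_C2 and R24h_C3), 6 of the 18 libraries of the series. All 6 came from male C57BL/6 mice of 8 to 10 weeks and 24.0 to 26.0 g that carried AAV-SYN-shRNA-Con, a scramble short hairpin RNA expressed in neurons from a viral vector. The vector was injected into the left lateral ventricle 4 weeks before the operation, so the 28 d, the 24 h and the sham mice of this arm all share it. Sham-operated cortex of the same arm (Sham_C1, Sham_C2 and Sham_C3) gave the level without occlusion. The labels do not say when sham cortex was taken, so time since the operation cannot be told apart in differences from sham. The remaining 9 libraries carried a Tiparp shRNA in the same vector (sham, 24 h and 28 d). The question addressed was which parts of the response seen 1 day after the stroke were gone 4 weeks later, and which were not. Of 37319 genes in the deposited table, 13997 had at least 1 FPKM (fragments per kilobase of transcript, scaled to the mapped fragments of the library) in at least 3 of the 6 libraries, and these were tested.

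After a focal ischemic stroke, dying cells and a leaking vessel wall first trigger heat shock and antioxidant genes, cytokines, and the entry of neutrophils and monocytes. Astrocytes and microglia then change state, clear debris and border the lesion, while surviving neurons can regain activity. In whole tissue a lower value can come from fewer cells of a type or from less RNA per cell, and these cannot be told apart here.

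Some libraries stood apart from others of their group. R28d_C1 lay close to sham: Gfap, the intermediate filament of reactive astrocytes, was at 37.8 FPKM in R28d_C1, 407 FPKM in R28d_C2 and 165 FPKM in R28d_C3, against 341 to 414 FPKM at 24 h. Sham held 29.9 to 35.6 FPKM of Gfap. R24h_C3 carried Ttr, the transthyretin of the choroid plexus, at 1682 FPKM, while the other libraries of the 3 groups held 1.92 to 81.9 FPKM. R24h_C3 was also the highest in the striatal markers Drd2, Adora2a and Penk (14.9, 13.3 and 186 FPKM) and the lowest in Slc17a7, the vesicular glutamate transporter of cortical excitatory neurons, at 42.6 FPKM. R24h_C2 had the mildest 24 h change. Pearson correlations of log2(FPKM + 1) within a group were 0.971 to 0.980 at 28 d, 0.943 to 0.965 at 24 h and 0.984 to 0.985 in sham. The neuronal marker Rbfox3 was present in all libraries, at 47.2 to 55.2 FPKM at 28 d and 31.2 to 56.9 FPKM at 24 h. The part of these differences between libraries in the results was not tested, except by leaving libraries out.

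At 28 d, 671 genes were lower and 169 were higher than at 24 h (limma, adjusted p under 0.05), so that 4.79% of the tested genes fell, 1.21% rose, 6% were called and 79.9% of the calls were decreases. A change of at least 1 on the log2 scale was reached by 308 of the genes that fell and by 28 of those that rose. The median difference of all tested genes was -0.095. With the libraries rescaled by median ratios this median was 0.0024, and 442 genes fell and 268 rose. The calls depended on single libraries. Without R24h_C2 2260 genes fell and 653 rose, without R28d_C2 46 fell and 9 rose, and without R28d_C1 32 fell and 13 rose. Without R24h_C3 2 fell and none rose, without R28d_C3 1 fell and none rose, and without R24h_C1 limma called no gene, with 2761 at an unadjusted p under 0.05. Of the 840 calls, none passed in all 6 of these fits, which already follows from the fit without R24h_C1. The filter was applied again in each fit. A gene under 1 FPKM in all 28 d libraries was therefore not tested when a 24 h library was left out. Such a gene was counted as not passing.

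**Figure D1:**
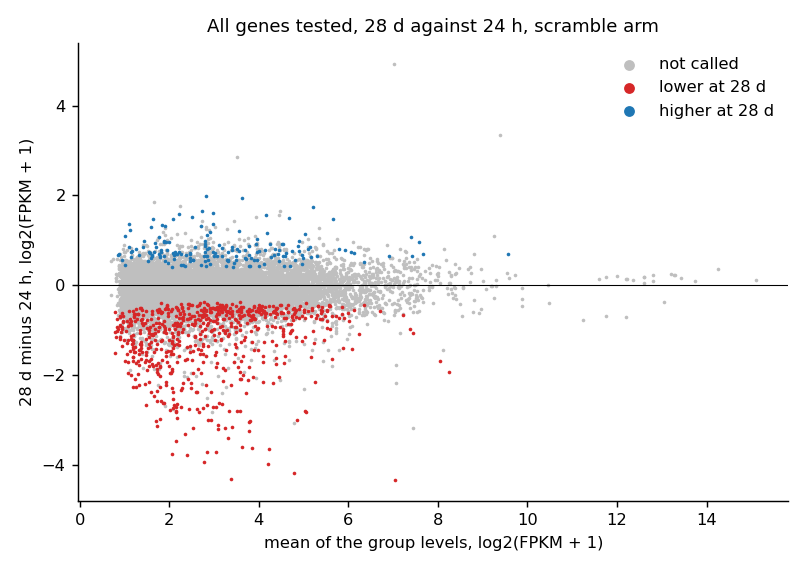
Each point is 1 of the 13997 tested genes, with the mean of the 2 group levels on the x axis and 28 d minus 24 h on the y axis, both in log2(FPKM + 1); red points fell (671), blue points rose (169) and grey points did not pass. The decreases reach beyond -4, while no called increase passes 2.

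Of the 671 genes that fell, 340 had been raised at 24 h by at least 1 over sham with no overlap, and of the 169 that rose, 127 had been lowered by at least 0.5 in the same way. In the 671 genes the median relative to sham was 0.08 at 28 d and 1.01 at 24 h (log2). In those that rose it was 0.04 at 28 d and -0.67 at 24 h. These sham levels share the 24 h libraries with the calls and are given as a description. R28d_C1, R28d_C2 and R28d_C3 had medians of -0.01, 0.12 and 0.10 relative to sham over the genes that fell. Of the genes that fell, 121 still had all 28 d libraries above all sham libraries, whereas over all genes tested between 28 d and sham this held for 12.6%.

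Cytokines and chemokines, the secreted signals that draw leukocytes, fell at 28 d in 8 of the 15 tested members of their list, and none rose (list median -1.98). Ccl2, the chemokine that recruits monocytes, was at 0.182, 1.23 and 0.526 FPKM at 28 d, against 21.7, 11.5 and 49.5 FPKM at 24 h. The 2 groups were far apart, and sham held 0.102 to 0.209 FPKM, so that R28d_C2 and R28d_C3 were above every sham library. Ccl2 fell by 3.93 ± 0.50 on the log2 scale (SE, limma adjusted p = 0.0259). Cxcl1, a neutrophil attractant, was at 0.0407, 0.632 and 0.374 FPKM at 28 d, against 9.36, 16.2 and 32.6 FPKM at 24 h, a fall by 3.77 (limma adjusted p = 0.0199). Il11, a cytokine of the interleukin-6 family, held 0.0436, 0.0423 and 0.0959 FPKM at 28 d, against 13.4, 6.48 and 26.8 FPKM at 24 h. All 3 of its 28 d values lay within the sham range of 0.0295 to 0.145 FPKM. Ccl4, Il6, Lif, Ccl7 and Cxcl10 were the other members that fell, with log2 changes of -2.64, -1.95, -1.98, -2.36 and -1.67. Il11, Cxcl1 and Ccl4 were under 1 FPKM in every 28 d library and were tested only because they were high at 24 h. For such genes the filter fixed the direction in advance, so the counts and the median of this list partly follow from it. By the annotation of the deposited table, chemokine activity had 24 tested genes, of which 7 fell and 1 rose (Ccl27a, by 1.03).

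Several markers of neutrophils, monocytes and macrophages fell by 28 d, and others of the same lists did not. Of 3 tested neutrophil genes, 2 fell, S100a8 and S100a9, the subunits of calprotectin. S100a9 was at 0, 2.28 and 0.811 FPKM at 28 d, against 25.9, 13.9 and 117 FPKM at 24 h, and the sham libraries had 0.637 to 1.05 FPKM. It fell by 4.32 ± 0.79 (SE, limma adjusted p = 0.0396). Only 3 of the 10 genes of the neutrophil list reached the filter, and none of the 11 lymphocyte genes did (0 tested). Monocyte and macrophage markers fell in 6 of 10 tested members, with no increase (median -2.24). In 5 of the 10 all 28 d libraries were above all sham libraries, against 12.6% of all genes tested between 28 d and sham. Msr1, a scavenger receptor, was at 0.0623, 0.276 and 0.249 FPKM at 28 d, against 10.9, 4.94 and 11.1 FPKM at 24 h, and fell by 2.99 (limma adjusted p = 0.0152). Sham held 0.0187 to 0.0434 FPKM of Msr1, below all 28 d libraries. Arg1, which splits arginine, Lyve1, a hyaluronan receptor of border macrophages, and Cd14, a coreceptor for lipopolysaccharide, fell by 2.26, 2.57 and 3.63. Msr1, Arg1 and Lyve1 were under 1 FPKM in every 28 d library, so the filter admitted them only through 24 h and fixed their direction. Lyz2, the lysozyme of myeloid cells, belongs to the same list and did not pass. In R28d_C2 and R28d_C3 it was above every 24 h library.

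Heat shock proteins, chaperones that refold damaged protein, fell in 8 of 18 tested members of their list and rose in none (median -0.98). Inducible HSP70 is encoded by Hspa1a and Hspa1b, near-identical copies whose reads may be split between them, so that their separate values are uncertain. Hspa1b had 3.80, 5.10 and 3.62 FPKM at 28 d, against 83.5, 36.5 and 83.0 FPKM at 24 h. The 28 d libraries lay inside the sham range of 3.501 to 5.63 FPKM. It fell by 3.65 ± 0.33 (SE, limma adjusted p = 0.0152) and Hspa1a by 3.26 (limma adjusted p = 0.0175). Hspb1, the small heat shock protein HSP27, fell by 3.60, with 1.18, 5.17 and 1.54 FPKM at 28 d, against 37.1, 25.8 and 58.5 FPKM at 24 h. Its 28 d libraries were all above the sham range of 0.412 to 1.07 FPKM. Smaller decreases were those of the collagen chaperone Serpinh1 (-1.84), the mitochondrial chaperonin pair Hspe1 (-1.24) and Hspd1 (-0.98), Hsph1 (-1.14) and Hsp90aa1 (-0.98). Constitutive Hspa8 did not pass, with 155, 145 and 173 FPKM at 28 d, against 235, 163 and 216 FPKM at 24 h, where R24h_C2 fell inside the 28 d range.

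Heat shock factor binds inverted repeats of a short unit, and promoters of list members are shown because 8 of the 18 fell. In the RefSeq promoter table (GRCm38.p6, the 250 bases before each start), the letters GAANNTTC, which read the same on both strands, occurred in 5 of the 7 genes that fell and had an entry. They occurred in 1 of 7 list members that did not pass (Dnaja1) and in 7.73% of all 27025 genes with a promoter entry. A gene counted if any of its entries held the letters. The 48 bases below are written 5′ to 3′ on the strand of the gene, with capitals marking the match.
Hspa1b, chr17:34959315-34959362, minus strand: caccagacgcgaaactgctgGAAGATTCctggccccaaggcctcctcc
Hspa1a, chr17:34972233-34972280, minus strand: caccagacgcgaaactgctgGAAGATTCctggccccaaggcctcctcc
Hspb1, chr5:135887802-135887849, plus strand: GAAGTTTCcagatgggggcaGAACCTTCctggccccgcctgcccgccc
Hspd1, chr1:55088044-55088091, minus strand: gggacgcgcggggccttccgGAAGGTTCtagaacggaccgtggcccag
Hspe1, chr1:55088044-55088091, plus strand: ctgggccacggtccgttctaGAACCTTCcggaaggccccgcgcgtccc
Dnaja1, chr4:40722324-40722371, plus strand: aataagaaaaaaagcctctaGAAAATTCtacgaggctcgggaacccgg
The Hspa1a and Hspa1b stretches are the same letter for letter, and the match begins 104 bases before the start of each. Hspb1 has 2 matches. Hspd1 and Hspe1 are read in opposite directions from 1 shared stretch, so their matches are a single stretch of DNA. A match of letters is a description and does not show that the factor binds.

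Antioxidant and metal-binding genes fell in 5 of the 12 tested genes of the NRF2 and metallothionein list (median -1.06). Hmox1, which breaks down heme, was at 3.48, 6.82 and 4.94 FPKM at 28 d, against 161, 45.4 and 168 FPKM at 24 h. Sham held 2.80 to 3.94 FPKM, so R28d_C2 and R28d_C3 were just above it and R28d_C1 within it. Hmox1 fell by 4.19 ± 0.51 (SE, limma adjusted p = 0.024). The metallothionein Mt2 had 96.3, 259 and 126 FPKM at 28 d, against 519, 467 and 737 FPKM at 24 h. It fell by 1.93 (limma adjusted p = 0.0422), Mt1 by 1.69, the sulfiredoxin Srxn1 by 1.65 and the cystine transporter Slc7a11 by 1.31. In this list the letters TGACNNNGC on either strand were in 1 of the 4 genes that fell and had a promoter entry (Mt2). They were in 3 of 5 that did not pass and in 11.5% of all genes with a promoter entry.

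Of 14 genes of the p53 and apoptosis list, 3 fell: the cell cycle inhibitor Cdkn1a (-2.81), Gadd45b (-2.08) and the apoptosis regulator Bid (-0.57). Cdkn1a had 8.95, 16.0 and 8.72 FPKM at 28 d, against 87.5, 51.1 and 122 FPKM at 24 h, with no overlap, and sham lay at 14.2 to 17.8 FPKM. The hypoxia and glycolysis list gave 3 decreases among 15 genes, the vasodilator peptide Adm (-1.80), the oxygen sensor Egln3 (-1.13) and the glucose transporter Slc2a1 (-0.94). None of the 25 genes annotated to the glycolytic process passed, where 6% of all tested genes did. In the integrated stress and unfolded protein list only Atf3, a stress transcription factor, passed among 12 (-2.97), beside a list median of -0.75. Adm and Atf3 were under 1 FPKM in every 28 d library, so the filter admitted them only through 24 h and fixed their direction. Ptgs2, the inducible cyclooxygenase, had the smallest adjusted p among all genes the text names: 3.10, 2.62 and 2.66 FPKM at 28 d, against 10.3, 10.5 and 9.30 FPKM at 24 h, a fall by 1.54 ± 0.10 (SE, limma adjusted p = 0.00868). Ptgs2 passed in 4 of the 6 fits without 1 library.

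Proteasome subunits, which form the machine that degrades ubiquitin-tagged protein, fell by small amounts in many members. In the list, 14 of 25 fell, none rose, the median was -0.56, and in all 25 the 28 d and 24 h libraries did not overlap, against 27.4% of all tested genes that were lower without overlap. Psmb2 was at 39.2, 34.8 and 40.8 FPKM at 28 d, against 61.3, 53.1 and 73.1 FPKM at 24 h, and fell by 0.68 (limma adjusted p = 0.0468). Sham held 39.7 to 44.6 FPKM. With median-ratio scaling 4 of the 25 passed, with a median of -0.45. By annotation, 18 of 62 genes of the proteasome complex fell and none rose, whereas for the ribosome 7 of 199 fell, a share of 3.52% beside 4.79% of all tested genes, with a median of -0.36. Without overlap, 49 of the 62 and 90 of the 199 were lower at 28 d, and 0 and 3 were higher. Over all tested genes these shares were 27.4% lower and 10.1% higher.

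**Figure D2:**
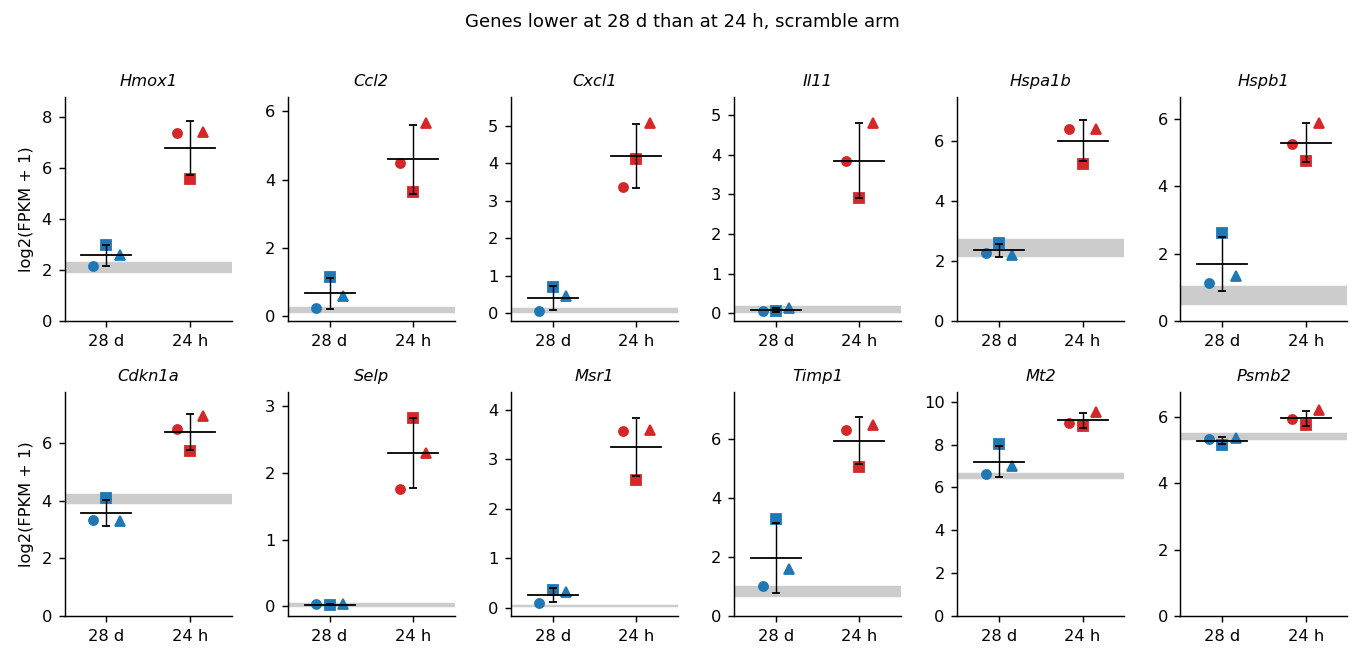
Levels in log2(FPKM + 1) of 12 genes that fell, with 28 d (blue) left of 24 h (red); circles, squares and triangles are replicates 1, 2 and 3, black lines and bars are the mean and SD of 3 libraries, and the grey band is the range of the 3 sham libraries. The 28 d libraries of every gene shown lie below all 24 h libraries, and R24h_C2 (square) is the lowest 24 h library of Hmox1, Ccl2, Il11, Hspa1b and Msr1.

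Vessel genes fell as well. Endothelial activation genes fell in 6 of 7 tested members (median -1.54) and the endothelial identity list in 7 of 13 (median -1.16), and none of either list rose. Selp, the P-selectin on which leukocytes roll, was at 0.0236, 0.0129 and 0.0257 FPKM at 28 d, against 2.39, 6.02 and 3.91 FPKM at 24 h. It fell by 2.26 ± 0.25 (SE, limma adjusted p = 0.0199), and the 28 d values lay within the sham range of 0 to 0.0396 FPKM. The adhesion molecule Icam1 had 0.315, 1.26 and 0.924 FPKM at 28 d, against 4.19, 5.01 and 7.23 FPKM at 24 h, and stayed above the sham range of 0.0872 to 0.216 FPKM in all 3 libraries. Sele (E-selectin), Procr (a protein C receptor), Angpt2 (a vessel-destabilizing ligand) and Plat (tissue plasminogen activator) fell by 1.51, 1.71, 1.54 and 1.01. Selp and Procr were under 1 FPKM in every 28 d library, so the filter admitted them only through 24 h and fixed their direction. Vcam1 did not pass (-0.35, limma adjusted p = 0.196). Cdh5, the cadherin of endothelial junctions, had 0.806, 1.71 and 2.18 FPKM at 28 d, against 10.99, 5.87 and 13.6 FPKM at 24 h, and Pecam1, Emcn and Vwf fell with it (-1.86, -1.55 and -1.22). By annotation, 32 of 167 angiogenesis genes fell and 1 rose, and 9 of 38 blood coagulation genes fell and 1 rose, P2ry12.

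Matrix genes gave 6 decreases among 17 tested genes of the scar list (median -0.97). Timp1, an inhibitor of matrix metalloproteinases, was at 1.03, 8.86 and 2.02 FPKM at 28 d, against 79.0, 32.2 and 89.4 FPKM at 24 h, and fell by 3.99 ± 0.64 (SE, limma adjusted p = 0.0339). R28d_C2 was the highest 28 d library and R28d_C1 was within the sham range of 0.584 to 1.04 FPKM. Tnc (tenascin C) and the collagen crosslinker Lox fell by 2.73 and 1.16. Both were under 1 FPKM in every 28 d library, so the filter admitted them only through 24 h. Col1a1, a fibrillar collagen, did not pass, with 0.652, 1.72 and 2.08 FPKM at 28 d, against 3.56, 1.91 and 1.70 FPKM at 24 h. Spp1 (osteopontin), which macrophages and microglia secrete, had 4.97, 57.4 and 34.3 FPKM at 28 d, against 666, 216 and 703 FPKM at 24 h. It had the greatest fall of the called genes without overlap, 4.34 ± 0.88 (SE, limma adjusted p = 0.0464), yet R28d_C2 and R28d_C3 were above the sham range of 6.34 to 6.77 FPKM and R28d_C1 below it.

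Interferon-response genes fell in 9 of 16 tested members (median -0.95) and none rose. Igtp, an immunity-related GTPase, had 1.48, 2.35 and 2.08 FPKM at 28 d, against 9.54, 8.86 and 6.64 FPKM at 24 h, and fell by 1.65 (limma adjusted p = 0.0175). Ifitm3, which blocks virus entry, had 3.70, 19.99 and 13.8 FPKM at 28 d, against 91.7, 60.0 and 92.4 FPKM at 24 h, and all 28 d libraries were above the sham range of 2.46 to 2.96 FPKM. In 13 of the 16 genes all 28 d libraries were above all sham libraries, against 12.6% of all genes. Isg15, Cxcl10 and Gbp2 fell by 1.66, 1.67 and 2.37.

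Of the ischemia-type reactive genes, 8 of 11 tested fell (median -2.09), and of the pan-reactive genes 4 of 13 (median -1.96). The difference between the lists was not tested, and with array weights 11 of 11 and 11 of 13 fell. In that fit, whose weights stopped before convergence, 4906 of all 13997 tested genes fell. The 8 were Tgm1, Tm4sf1, Slc10a6, Ptgs2, Clcf1, S100a10, Cd14 and Sphk1, and the 4 were Timp1, Hspb1, Osmr and Cxcl10. Slc10a6 was under 1 FPKM in every 28 d library, so the filter admitted it only through 24 h. Tgm1, a transglutaminase, had 0.144, 2.81 and 0.903 FPKM at 28 d, against 23.7, 14.1 and 49.2 FPKM at 24 h. Several of these genes are also expressed by myeloid or endothelial cells, so that tissue RNA does not assign them to astrocytes. The median of the ischemia-type list relative to sham was -0.03, 0.45 and 0.13 in R28d_C1, R28d_C2 and R28d_C3, while that of the pan-reactive list was 0.06, 1.86 and 0.95. Among homeostatic astrocyte genes, Slc1a2, the main glutamate transporter, and the zinc transporter Slc39a12 rose (2 of 12, median 0.38). Slc1a2 was at 206, 220 and 212 FPKM at 28 d, against 120, 145 and 145 FPKM at 24 h, a rise of 0.64 ± 0.12 (SE, limma adjusted p = 0.0404), and sham held 202 to 207 FPKM.

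Of 13 homeostatic microglia genes, 5 rose and none fell (median 0.51). P2ry12, the ADP receptor that guides microglial processes, had 10.9, 9.47 and 14.3 FPKM at 28 d, against 3.997, 4.39 and 3.23 FPKM at 24 h. It rose by 1.36 ± 0.17 (SE, limma adjusted p = 0.0254), and its 28 d values spread over the sham range of 8.52 to 13.5 FPKM. Gpr34, a lysophospholipid receptor, had 3.52, 6.39 and 4.41 FPKM at 28 d, against 1.22, 1.21 and 1.27 FPKM at 24 h, and rose by 1.34. Selplg, Siglech and P2ry13 rose by 0.84, 0.81 and 0.68, and all 3 of the 28 d values of P2ry13 (5.84, 6.61 and 5.57 FPKM) were above the sham range of 3.28 to 3.62 FPKM. Cx3cr1, the fractalkine receptor of the same list, did not pass and had 1.68, 18.01 and 1.81 FPKM at 28 d, against 1.70, 1.29 and 10.4 FPKM at 24 h, a split within both groups. Disease-associated microglia genes, which mark microglia around damage, fell in 2 of 22, Spp1 and the cathepsin Ctsl, and did not pass in 20. The share that fell was 9.09%, beside 4.79% of all tested genes. The median of this list was -0.79. Without overlap, 7 of its genes were lower at 28 d and 1 higher, against 27.4% and 10.1% of all tested genes.

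Immediate early genes, which neurons switch on within minutes of activity, also went both ways: 6 of 23 rose and 4 fell. Those that rose were the nuclear receptors Nr4a1, Nr4a2 and Nr4a3, the zinc finger factors Egr3 and Egr4, and Arc, a regulator of synaptic receptors. Nr4a1 had 85.4, 41.9 and 78.1 FPKM at 28 d, against 20.1, 17.6 and 19.1 FPKM at 24 h, and rose by 1.74 ± 0.26 (SE, limma adjusted p = 0.0312). R28d_C2 was the lowest 28 d library, below the sham range of 63.5 to 85.7 FPKM. Nr4a2, Egr4, Egr3, Arc and Nr4a3 rose by 1.98, 1.60, 1.56, 1.47 and 1.32. Nr4a3, at 5.85, 4.10 and 4.84 FPKM at 28 d, against 1.22, 1.58 and 1.31 FPKM at 24 h, had all 28 d libraries above the sham range of 2.47 to 3.94 FPKM. Those that fell were Atf3, Fosl1, Nptx2 and Jun (-2.97, -2.38, -1.76 and -1.24). For Atf3, under 1 FPKM in every 28 d library, the filter fixed the direction. Fos itself did not pass, with 21.1, 11.03 and 19.4 FPKM at 28 d, against 34.9, 16.2 and 55.7 FPKM at 24 h. The letters TGACGTCA, the full cAMP response element, were in none of the 4 genes that rose and had a promoter entry. They were in none of the 2 such genes that fell and in 2 of 11 that did not pass (Btg2 and Dusp1). Of all genes with a promoter entry, 1.77% held them.

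Synaptic genes rose in 4 of 24 tested members of their list, and none fell (median 0.47). Synpo, the actin-binding protein of the spine apparatus, had 28.3, 18.1 and 23.8 FPKM at 28 d, against 4.82, 5.88 and 5.04 FPKM at 24 h. It rose by 1.95 ± 0.17 (SE, limma adjusted p = 0.0152), with sham at 23.8 to 31.7 FPKM. The others were postsynaptic scaffold genes, Shank1 (1.15), Shank3 (0.70) and Dlgap3 (0.66). Shank1 had 50.8, 42.3 and 49.5 FPKM at 28 d, against 23.02, 25.9 and 15.1 FPKM at 24 h. Of 396 genes annotated to the synapse, 14 rose (3.54%, against 1.21% of all tested genes) and 6 fell (1.52%, against 4.79%). The synaptotagmin Syt7 (1.49) and the release factor Unc13a (0.91) rose among them, and the genes that fell included Ccl2, the integrin Itga5 and the proteasome subunit Psmc4. None of 10 excitatory neuron markers, 12 inhibitory neuron markers, 11 striatal markers or 18 voltage-gated channel genes passed, where 6% of all tested genes did. At that share few or no calls fall in lists of this size, so these counts do not show that the genes were unchanged. Slc17a7 had 134, 104 and 117 FPKM at 28 d, against 108, 143 and 42.6 FPKM at 24 h, so that R24h_C3 alone was low (0.43, 95% interval -0.57 to 1.43). Without R24h_C3 the difference was -0.08. The median of the synaptic list relative to sham was -0.49, -0.07 and -1.05 in R24h_C1, R24h_C2 and R24h_C3. That of the excitatory markers was -0.22, -0.16 and -1.19, and that of 4 tested choroid plexus genes 0.67, 0.41 and 2.89. The part of the tissue makeup of R24h_C3 in the synaptic increases was not tested.

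**Figure D3:**
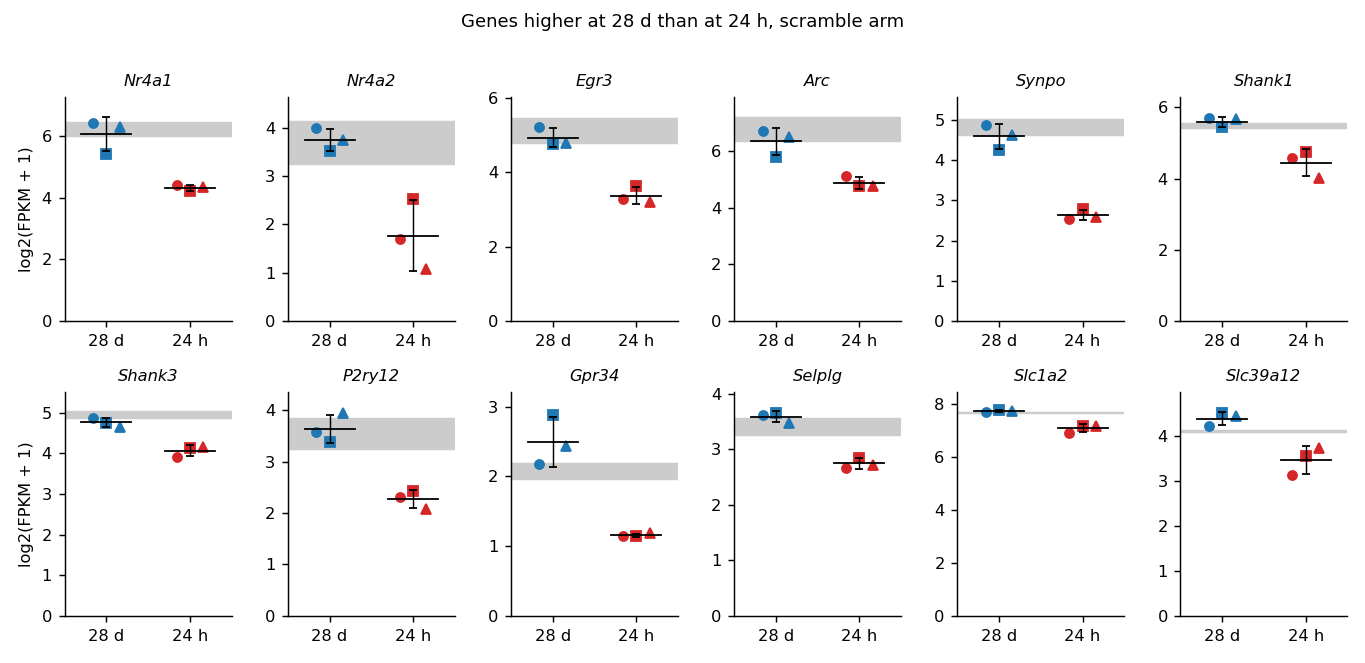
Levels in log2(FPKM + 1) of 12 genes that rose, with 28 d (blue) left of 24 h (red); circles, squares and triangles are replicates 1, 2 and 3, black lines and bars are the mean and SD of 3 libraries, and the grey band is the range of the 3 sham libraries. In each gene all 28 d libraries lie above all 24 h libraries, and the 28 d values of Slc1a2 reach from 206 to 220 FPKM beside 202 to 207 FPKM in sham.

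Further genes with the greatest increases were Tshz2, Mir212, Col5a1 and Grp (1.64, 1.60, 1.52 and 1.47). Mir212 is the host transcript of a microRNA as listed in poly(A) RNA, and its value does not measure the mature microRNA. Tshz2, a zinc finger gene, was the single called gene that moved away from sham by at least 1 after moving by less than 0.5 at 24 h. It had 5.71, 10.9 and 17.0 FPKM at 28 d, against 1.99, 2.92 and 3.03 FPKM at 24 h, with sham at 2.59 to 5.27 FPKM, and rose by 1.64 (limma adjusted p = 0.0468).

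Genes were taken as raised when the 24 h libraries were all above the sham libraries and the means differed by at least 1 (log2). There were 829, of which 756 were tested (5.4% of all tested genes). Because this choice used the same 24 h and sham libraries, the following counts are a description. Of the 756, 340 fell and 416 did not pass, and 255 had all 28 d libraries above all sham libraries. In 600 of the 756 every 28 d library was below every 24 h library, and 2 of the 756 passed between 28 d and sham. Their median above sham was 0.04, 0.56 and 0.39 in R28d_C1, R28d_C2 and R28d_C3, and 1.65, 1.02 and 1.76 in R24h_C1, R24h_C2 and R24h_C3. When the raised genes were chosen in the Tiparp arm instead, whose libraries are not part of this comparison, 258 were tested (1.84% of all tested genes), 141 fell and 117 did not pass. In 208 of the 258 every 28 d library was below every 24 h library, and none passed between 28 d and sham. Their median difference between 28 d and 24 h in the scramble arm was -1.68, and the medians above sham were 0.04, 0.82 and 0.53 at 28 d.

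Genes of complement and of phagocytic myeloid cells were among those not passing, as were most tested genes. The medians of the complement and disease-associated microglia lists were nevertheless negative (-0.64 and -0.79), unlike several of the genes shown here. C3, the central complement component, had 0.121, 27.0 and 14.7 FPKM at 28 d, against 2.54, 0.98 and 4.57 FPKM at 24 h. R28d_C2 and R28d_C3 were above every 24 h library and R28d_C1 below every one, though all were above the sham range of 0.0452 to 0.105 FPKM. The difference was 1.22 (95% interval -1.53 to 3.97, limma adjusted p = 0.501). C4b had 5.93, 50.2 and 22.6 FPKM at 28 d, against 15.8, 17.4 and 18.7 FPKM at 24 h, and its reads may be shared with a near-identical copy. Over the complement list 1 of 14 fell, the anaphylatoxin receptor C5ar1 (-2.54), a share of 7.14% beside 4.79% of all tested genes. Without overlap, 5 of the 14 were lower at 28 d and 0 higher, against 27.4% and 10.1% of all tested genes. The median of the list above sham was 0.13, 1.43 and 1.04 in R28d_C1, R28d_C2 and R28d_C3.

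Lyz2 had 6.11, 119 and 128 FPKM at 28 d, against 105, 10.1 and 67.0 FPKM at 24 h, with 1 low library in each group (0.15, 95% interval -2.97 to 3.28). Gpnmb, a glycoprotein of lipid-loaded phagocytes, had 0.480, 12.5 and 12.1 FPKM at 28 d, against 4.23, 1.21 and 4.97 FPKM at 24 h. Cst7, a cystatin of activated microglia, had 0.870, 22.3 and 4.16 FPKM at 28 d, against 2.62, 1.33 and 2.35 FPKM at 24 h. In each of these, R28d_C1 was the lowest 28 d library by a wide margin. Apoe, the lipid carrier of astrocytes and microglia, had 496, 1373 and 895 FPKM at 28 d, against 346, 381 and 465 FPKM at 24 h, so all 28 d libraries were higher. The difference of 1.10 did not pass (95% interval 0.25 to 1.95, limma adjusted p = 0.0976), and sham held 504 to 522 FPKM. Trem2, the lipid receptor of microglia, and the cathepsin Ctss did not pass (0.68 and 0.24). None of the 11 tested genes of antigen presentation by MHC passed, where 6% of all tested genes did. The median of this list was -0.47. Without overlap, 4 of the 11 were lower at 28 d and 0 higher, against 27.4% and 10.1% of all tested genes. H2-Aa differed by 0.27, Psmb8 by -0.88 and Tap2 by -0.82. MHC genes have close copies, so that their separate values are uncertain.

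Gfap and Serpina3n, of the pan-reactive astrocyte list, were high in R28d_C2 and R28d_C3 and near sham in R28d_C1. Gfap differed by -1.44 (95% interval -3.28 to 0.40, limma adjusted p = 0.249). Serpina3n, a secreted protease inhibitor, had 9.43, 153 and 55.6 FPKM at 28 d, against 364, 360 and 511 FPKM at 24 h. No library overlapped, but the difference of -3.18 did not pass (limma adjusted p = 0.0747), and sham was at 6.19 to 8.67 FPKM. Lysosome genes by annotation fell in 14 of 268, a share of 5.22% near the 4.79% of all tested genes, and rose in 1. Oligodendrocyte genes gave 1 decrease among 13, the iron carrier Trf (-1.40), and a median of 0.00. Mbp, a myelin protein, had 96.6, 124 and 98.3 FPKM at 28 d, against 56.8, 94.2 and 119 FPKM at 24 h, which overlap.

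**Figure D4:**
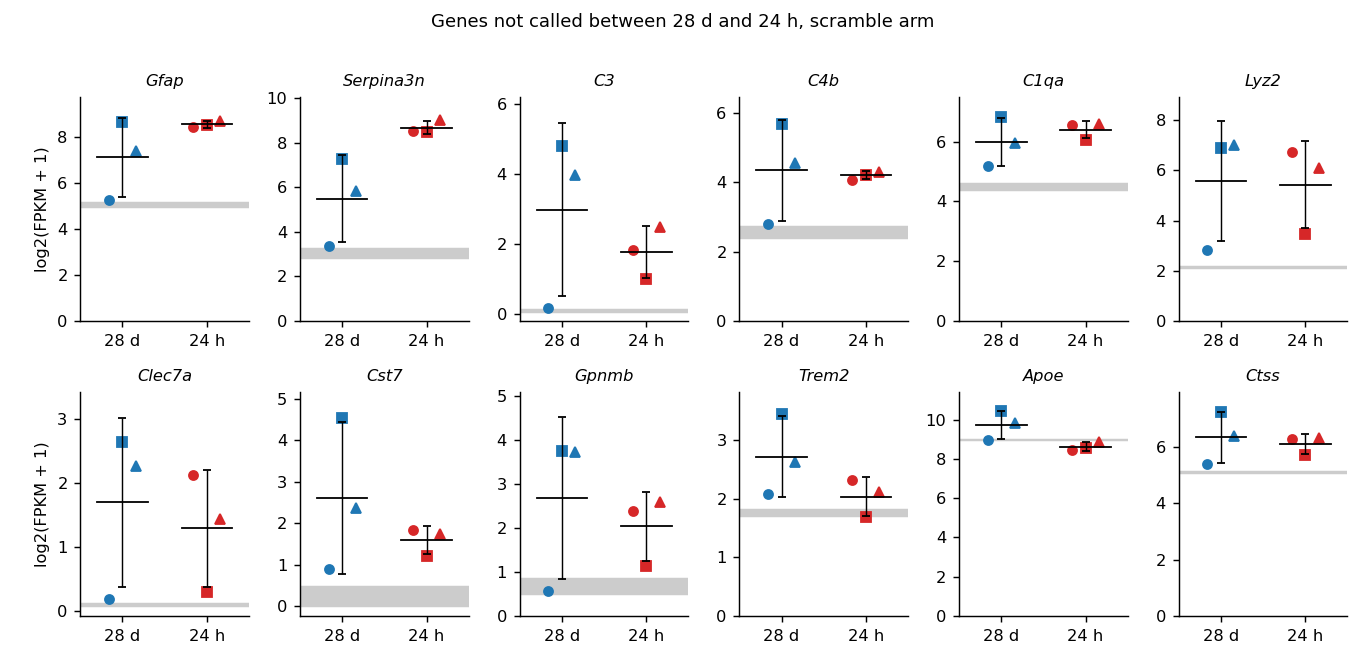
Levels in log2(FPKM + 1) of 12 genes that did not pass, with 28 d (blue) left of 24 h (red); circles, squares and triangles are replicates 1, 2 and 3, black lines and bars are the mean and SD of 3 libraries, and the grey band is the range of the 3 sham libraries. R28d_C1 (circle) is the lowest 28 d library in all 12 panels, for example Gfap at 37.8 FPKM beside 407 and 165 FPKM.

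Genes lowered at 24 h, by at least 0.5 below sham with no overlap, numbered 543 among those tested (3.88%). Of these 127 rose at 28 d, none fell and 416 did not pass. In 113 all 28 d libraries were below all sham libraries, against 6.08% of all genes, which were not chosen in this way. The choice used the same 24 h and sham libraries. It favours both a rise from 24 h and a level below sham, so these counts are a description. Cx3cl1, the neuronal ligand fractalkine, was one of these 113. It had 24.7, 21.1 and 24.4 FPKM at 28 d, against 15.0, 120 and 11.2 FPKM at 24 h, and 134 to 152 FPKM in sham. R24h_C2 alone was near sham. Sham cortex of the Tiparp arm, also without occlusion, had 22.7, 136 and 14.8 FPKM, so that the low level also occurred in 2 sham libraries. The difference did not pass (-0.23, limma adjusted p = 0.87), and without R24h_C2 it was 0.80 (limma adjusted p = 0.0222). Rnd2, a small GTPase, had 12.6, 12.6 and 25.5 FPKM at 28 d, against 21.6, 11.2 and 14.5 FPKM at 24 h, and 27.4 to 29.3 FPKM in sham. Sham cortex of the Tiparp arm had 30.4, 15.4 and 26.3 FPKM of Rnd2. When the lowered genes were chosen in the Tiparp arm, 340 were tested (2.43%), of which 56 rose in the scramble arm. Against sham, 7 of 13419 tested genes passed at 28 d (0.0522%, limma adjusted p under 0.05).

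**Figure D5:**
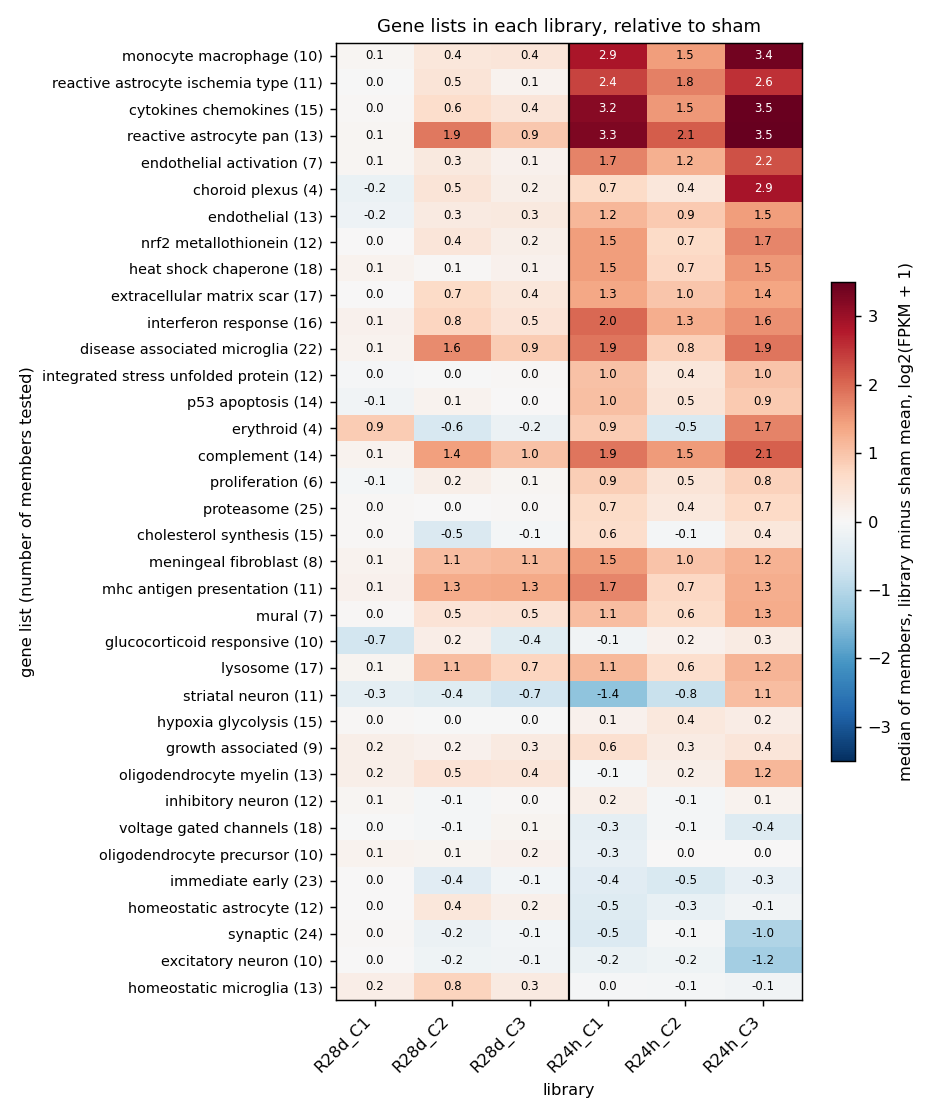
Rows are gene lists with at least 4 tested members (number in parentheses), columns the 3 libraries at 28 d and then the 3 at 24 h, and each cell the median over the members of the library's level minus the sham mean, in log2(FPKM + 1). Pan-reactive astrocyte genes have medians of 0.06, 1.86 and 0.95 at 28 d, disease-associated microglia genes 0.11, 1.65 and 0.89, and heat shock genes 0.11, 0.05 and 0.14.

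The same change was read in the Tiparp arm, whose 6 libraries at 28 d and 24 h are separate. Of the 671 genes that fell in the scramble arm, 604 were lower at 28 d in the Tiparp arm, where 52.9% of all tested genes were lower. Of the 169 that rose, 156 were higher there, where 47.1% of all were higher. The median differences were -0.31 and 0.43 in the Tiparp arm beside -0.93 and 0.72 in the scramble arm, whose values chose the genes. Without overlap of the groups, 50 of the 671 were lower in the Tiparp arm, a share near the 6.19% of all tested genes. Of the 169, 63 were higher without overlap, a share well above the 7.77% of all tested genes. A direct test of whether the change differed between the arms called 0 of 14756 genes (limma), with 1425 at an unadjusted p under 0.05 and a lowest adjusted p of 0.506. Hmox1 differed by -2.28 and Nr4a1 by 1.495 in the Tiparp arm, Ptgs2 by -1.18, Synpo by 0.30 and Spp1 by -0.51. Tiparp, the target of that shRNA, had 4.46, 3.59 and 3.77 FPKM at 28 d, against 6.66, 4.60 and 8.65 FPKM at 24 h in the scramble arm, and did not pass (-0.60, limma adjusted p = 0.106).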

How the data were processed

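The values are FPKM per gene, as deposited by the authors. Per the submitters' processing notes, HISAT, StringTie and edgeR were used with genome build mm9, and no versions are stated. Poly(A) RNA, second strands marked with dUTP and paired reads were used, per the labels' protocols. FPKM give no read totals, so depth is unknown. Of low genes, 3.89 to 4.75% showed a common step per read against R24h_C1, too few to recover counts.

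From these, log2(FPKM + 1) of the 2 groups was compared by two-sided limma 3.58.1 tests with a mean-variance trend in R 4.3.3, on the 6 libraries of the comparison, with Benjamini-Hochberg adjustment over all genes with at least 1 FPKM in at least 3 libraries, at 0.05. The pseudocount of 1 understates changes of low genes, and a gene near 0 at one time was tested only if it was high at the other. Fold changes and SEs are on that scale. Whether each library is its own mouse is not stated in the labels. The p-values therefore rest on library-to-library spread, which may be technical. Promoters came from RefSeq (GRCm38.p6); no coordinates of the deposited build are given. Assembly used Python 3.11.15. The code was tested on simulated data.

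The members, 39 gene lists and 63 annotation terms were chosen with earlier results of these data known. Genes were named by fixed rules: the 10 greatest changes each way among called genes without overlap, up to 4 called members a list (else the 2 with the smallest p) and 3 an annotation term, the 10 raised and 5 lowered genes at 24 h that stayed farthest from sham, and Tiparp. The text gives a part of these, and other list members were chosen after their values were seen. For 62 repeated symbols the entry with the highest mean was used. Alternatives were another pseudocount, filter, scaling, leaving out libraries, a block for the replicate number, array weights and a fit of all 18 libraries.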

Additional observations from a re-analysis of the deposited data

How the results depend on the processing

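Between 28 d and 24 h, the 169 increases and 671 decreases became 0 and 4 with no filter (33975 genes tested), 268 and 442 with median-ratio scaling, 2240 and 4906 with array weights (whose estimation stopped before convergence) and 541 and 1744 with all 18 libraries in 1 fit. Leaving out 1 library gave 0 to 653 increases and 0 to 2260 decreases. Without both R24h_C3 and R28d_C1, chosen after seeing the data, both counts were 0, with 2450 genes at an unadjusted p under 0.05. A replicate block gave 0 and 0 (3392 at an unadjusted p under 0.05). Deviations from the group means had r = -0.07, -0.28 and -0.09 between same-numbered libraries, and -0.21 to 0.30 between others. With 3 libraries a group, these values cannot show whether the numbers pair libraries, and the labels do not say. At a pseudocount of 0.1, a mean filter and scaling without mitochondrial genes the counts stayed within 1.5 times. Between 28 d and sham, the 3 increases and 4 decreases became 0 increases with no filter, 1 and 2 with scaling without mitochondrial genes, 0 and 1 with the replicate block, 5 and 7 with array weights and 0 and 0 with all 18 libraries in 1 fit (461 at an unadjusted p under 0.05). Leaving out 1 library gave 0 to 161 increases and 1 to 27 decreases, with the most without R28d_C1. The cause was not tested.

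Of 89 called genes followed here, none changed sign in a setting in which it was tested, and 12 of 30 genes not called did. Where the 2 groups do not overlap, leaving out libraries or another pseudocount, filter, block or weight cannot change the sign. For such genes a kept sign is therefore no measure of stability. The 89 were not all tested in each setting: the filter left 72 of them without 1 of the 24 h libraries, 88 without 1 of the 28 d libraries, 87 with the mean filter and 71 without both R24h_C3 and R28d_C1. Some of the genes lost without a 24 h library are not flagged above as admitted only through 24 h. With array weights the genes that changed sign were Lyz2 (-0.39), Clec7a (-0.081), H2-Aa (-0.28), Cx3cl1 (0.52) and Rnd2 (-0.10). Without both R24h_C3 and R28d_C1 they were C1qa (0.065), Slc17a7 (-0.17), Snap25 (-0.19) and Ttr (0.53). With 1 library left out the difference was -0.82 to 1.53 for Lyz2, -0.51 to 0.93 for C4b, -0.084 to 1.16 for Clec7a, -0.21 to 0.70 for Ctss, -0.25 to 0.77 for H2-Aa, -0.85 to 0.80 for Cx3cl1, -0.25 to 0.31 for Rnd2, -0.078 to 0.78 for Slc17a7, -0.096 to 0.50 for Snap25, -3.60 to 0.25 for Ttr and -0.0076 to 0.52 for Mbp.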
